A study of Rattus norvegicus with 18 samples.

Results

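Immediate-early genes are transcribed within minutes of a stimulus through transcription factors that are already present in the cell, so that no new protein has to be made first. In neurons, calcium entry through synaptic receptors and voltage-gated channels activates kinases and phosphatases that act on CREB and on SRF with its partners, and these factors bind cAMP response elements and CArG boxes near the start sites of the genes. Their messengers are short-lived, and in cortex the level of Fos, Arc, Egr1 or Npas4 is widely used as a marker of recent neuronal activity. Expression of 10 such genes, *Fos*, *Fosb*, *Junb*, *Egr1*, *Egr2*, *Arc*, *Npas4*, *Nr4a1*, *Ier2* and *Dusp1*, was examined pup by pup. The genes were chosen by symbol, and each of the 10 matched 1 of the 32623 genes listed for each pup.

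RNA-seq was performed on the PFC of 18 Sprague Dawley rat pups at P14, with 6 pups in each group. SAL pups had dams gavaged with saline. For PNO pups, oxy, an opioid analgesic, was gavaged to the dam at 15 mg/kg/day from birth until weaning, so that exposure was by way of the milk. The dams of IUO pups began at 10 mg/kg/day, were raised to 15 mg/kg/day before mating and stayed on that dose through gestation and lactation, so that IUO pups were exposed both before and after birth. All pups came from gavaged dams and all libraries were run on 1 flow cell. The labels give neither the sex nor the litter of a pup. The p-values therefore measure the spread between pups, some of which may share a dam. Total expected counts were between 18381819 and 26084780 per pup. All 10 genes passed the filter on low counts, as part of 15703 genes tested. In bulk tissue, fewer cells that express a gene and less RNA per cell cannot be told apart.

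Upstream sequences are shown for 6 of the genes because they carry, or lack, the elements through which activity is known to reach this class of genes. Each is the stretch of 250 bases before the RefSeq start site in build GRCr8 of the rat genome, read 5′ to 3′ in the direction of transcription. Capitals mark matches to the CArG box or to CGTCA, the short form of the cAMP response element, on either strand. The full element TGACGTCA holds CGTCA on both strands and is therefore in capitals as a whole.
Egr2: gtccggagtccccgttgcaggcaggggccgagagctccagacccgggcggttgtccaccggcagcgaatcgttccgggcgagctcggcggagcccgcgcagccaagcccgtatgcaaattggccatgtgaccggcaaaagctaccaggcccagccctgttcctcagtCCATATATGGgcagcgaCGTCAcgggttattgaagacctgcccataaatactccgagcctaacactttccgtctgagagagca
Nr4a1: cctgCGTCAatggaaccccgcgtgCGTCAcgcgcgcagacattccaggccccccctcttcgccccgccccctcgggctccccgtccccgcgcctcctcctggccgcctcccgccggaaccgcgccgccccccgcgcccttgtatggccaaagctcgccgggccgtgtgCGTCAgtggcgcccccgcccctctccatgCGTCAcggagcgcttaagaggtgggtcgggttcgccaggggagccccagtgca
Dusp1: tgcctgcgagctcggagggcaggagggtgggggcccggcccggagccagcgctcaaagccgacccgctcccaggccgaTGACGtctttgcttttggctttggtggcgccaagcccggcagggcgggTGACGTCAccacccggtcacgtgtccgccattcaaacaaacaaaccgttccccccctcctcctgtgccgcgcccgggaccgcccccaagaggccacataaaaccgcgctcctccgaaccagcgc
Ier2: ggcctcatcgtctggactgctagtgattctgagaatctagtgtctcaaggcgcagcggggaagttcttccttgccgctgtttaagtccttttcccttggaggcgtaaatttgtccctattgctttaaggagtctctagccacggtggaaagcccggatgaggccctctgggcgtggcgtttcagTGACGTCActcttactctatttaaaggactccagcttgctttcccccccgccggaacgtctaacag
Junb: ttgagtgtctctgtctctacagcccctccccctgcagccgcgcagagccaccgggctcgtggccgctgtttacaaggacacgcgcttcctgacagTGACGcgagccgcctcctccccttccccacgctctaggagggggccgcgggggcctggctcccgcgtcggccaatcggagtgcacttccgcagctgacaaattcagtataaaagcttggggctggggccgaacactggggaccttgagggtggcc
Npas4: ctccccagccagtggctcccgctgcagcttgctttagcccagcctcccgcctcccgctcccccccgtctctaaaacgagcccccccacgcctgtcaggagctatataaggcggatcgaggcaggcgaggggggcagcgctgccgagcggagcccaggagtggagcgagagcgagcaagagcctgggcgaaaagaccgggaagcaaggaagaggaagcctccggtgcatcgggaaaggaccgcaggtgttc
The stretches lie at chr20:21054442-21054691, minus strand (*Egr2*), chr7:134259888-134260137, plus strand (*Nr4a1*), chr10:17184603-17184852, plus strand (*Dusp1*), chr19:40399123-40399372, plus strand (*Ier2*), chr19:40080876-40081125, plus strand (*Junb*) and chr1:211716103-211716352, minus strand (*Npas4*). The table of upstream sequences matched 8 of the 10 genes, all but *Fos* and *Arc*.

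CArG boxes, the sequence bound by SRF, were matched in 2 of the 8 stretches. *Egr1* held 2 of them, from 105 to 96 and from 83 to 74 bases before the start site, and *Egr2* held 1, also from 83 to 74 bases before it. The box was matched in 1.5% of 33469 rat upstream stretches of the same length. TGACGTCA was matched in *Dusp1*, from 124 to 117 bases before the start site, and in *Ier2*, from 66 to 59 bases before it, against 1.59% of all stretches. CGTCA, which is part of TGACGTCA, was matched in 6 of the 8 genes and in 18.2% of all stretches. *Nr4a1* held it at 4 positions, the nearest from 53 to 49 bases before the start site, whereas no match to either element lay in the *Npas4* or *Fosb* stretch. GCGNGGGCG, the sequence read by the EGR zinc fingers, was matched only in *Nr4a1* and in 4.29% of all stretches. TATAAA was matched in *Junb*, from 49 to 44 bases before the start site. In *Fosb* it was matched on the opposite strand, from 180 to 175 bases before the start site. The sequence was matched in 12.9% of all stretches. A match is a description of the letters in this window.

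Length-adjusted levels were compared as TPM averaged over the 18 pups. *Egr1* was highest at 85.2 ± 32.2 TPM (SD, n = 18), followed by *Junb* at 48.1 ± 16.9 TPM, *Arc* at 44.9 ± 22.8 TPM and *Nr4a1* at 35.4 ± 18.2 TPM. *Dusp1* averaged 28.0 ± 9.43 TPM, *Fos* 23.1 ± 12.2 TPM and *Ier2* 17.7 ± 5.43 TPM. The lowest levels were those of *Npas4* at 8.88 ± 4.13 TPM, *Egr2* at 3.77 ± 2.09 TPM and *Fosb* at 2.87 ± 2.54 TPM. *Egr1* exceeded *Junb* in 18 of 18 pups, with a mean log2 ratio of 0.81 ± 0.15 (SD), and *Ier2* exceeded *Npas4* in 18 of 18 pups. *Npas4* exceeded *Egr2* in 17 of 18. The step from *Junb* to *Arc* was smaller than its spread, since *Junb* was the higher of the pair in 13 of 18 pups with a mean log2 ratio of 0.17 ± 0.31 (SD). The steps from *Nr4a1* to *Dusp1*, from *Dusp1* to *Fos* and from *Fos* to *Ier2* also lay within 1 SD of the log2 ratio. From here on, levels are TMM-normalized CPM, which compares pups within a gene.

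Among the AP-1 subunits, which pair as leucine zipper dimers on target promoters, *Fos* had a lowest, median and highest level of 10.3, 21.6 and 50.4 CPM in SAL pups, 9.25, 18.5 and 30.3 CPM in PNO pups, and 11.4, 19.3 and 37.5 CPM in IUO pups. *Fosb*, whose protein products accumulate under repeated stimulation, ran from 1.81 over 5.09 to 21.4 CPM in SAL, from 2.64 over 3.55 to 7.12 CPM in PNO, and from 4.13 over 5.75 to 13.2 CPM in IUO. The highest values of both genes came from SAL replicate 6, and the 3 groups overlapped throughout. *Junb*, a JUN partner of the FOS proteins, ran from 28.5 over 55.3 to 73.2 CPM in SAL, from 29.8 over 42.9 to 82.5 CPM in PNO, and from 41.3 over 45.7 to 93.7 CPM in IUO. Its highest pup was IUO replicate 1, at 93.7 CPM against 47.2 CPM in the next pup of that group.

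The EGR zinc finger factors bind GC-rich sites in promoters of synaptic genes. *Egr1* ran from 78.4 over 167 to 266 CPM in SAL, from 95.5 over 142 to 280 CPM in PNO, and from 115 over 155 to 251 CPM in IUO. *Egr2* ran from 2.12 over 7.11 to 12.6 CPM in SAL, from 2.74 over 4.76 to 13.6 CPM in PNO, and from 5.40 over 6.72 to 18.2 CPM in IUO. For both genes the lowest of the 18 pups was SAL replicate 4, and the 3 highest were SAL replicate 6, PNO replicate 3 and IUO replicate 1, 1 pup of each group. *Nr4a1*, an orphan nuclear receptor, showed the same 3 pups on top, with 116, 89.8 and 93.4 CPM in the same order, against group medians of 52.2, 39.7 and 47.5 CPM.

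*Npas4*, a bHLH-PAS factor of neurons that responds to calcium entry, ran from 7.14 over 17.0 to 23.4 CPM in SAL, from 5.23 over 10.2 to 19.0 CPM in PNO, and from 7.19 over 12.5 to 18.7 CPM in IUO. Its order of pups differed from that of the other genes. IUO replicate 1, among the 3 highest pups for 8 of the 10 genes, had the lowest *Npas4* level of its group. SAL replicate 1 was 3rd of the 18 pups for *Npas4* and between 5th and 16th for the other 9 genes.

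*Arc* encodes a synaptic protein that promotes removal of AMPA receptors from the membrane. Its level ran from 47.2 over 93.7 to 144 CPM in SAL, from 46.9 over 61.1 to 206 CPM in PNO, and from 47.6 over 56.1 to 113 CPM in IUO. The lowest pup was nearly the same in the 3 groups. The IUO values other than replicate 1 stayed at or below 69.2 CPM, and the PNO values other than replicates 2 and 3 at or below 67.8 CPM. *Ier2*, a nuclear protein induced by growth factors, lay between 7.29 and 27.3 CPM over all pups, and *Dusp1*, a phosphatase that switches off MAP kinases, between 19.3 and 63.6 CPM.

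**Figure D1:**
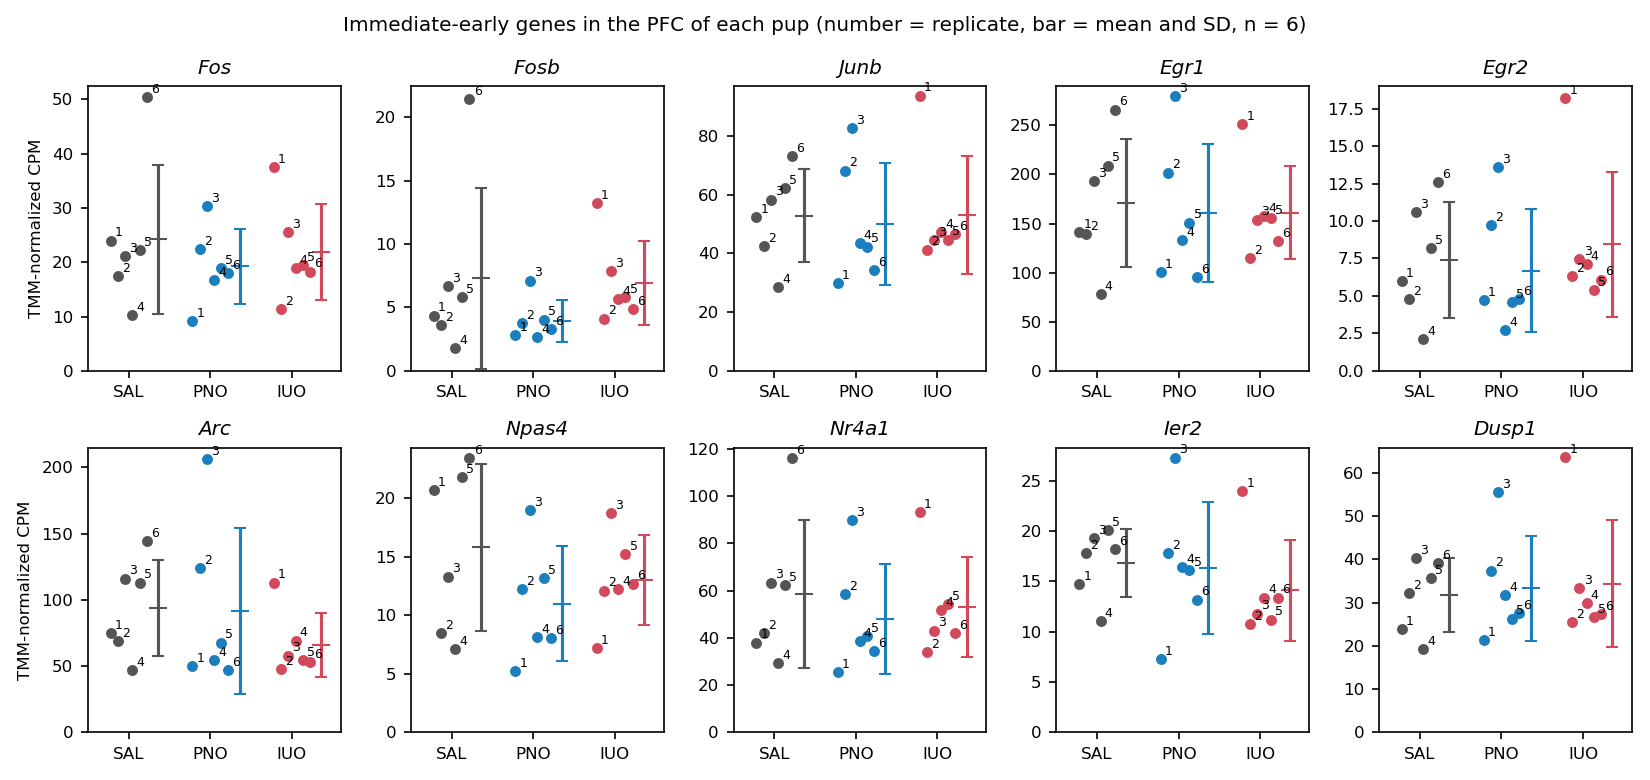
Level of each gene (TMM-normalized CPM, linear axis from 0) in the 18 pups. Each point is 1 pup with its replicate number, and the bar is the group mean with SD (n = 6). The groups overlap for all 10 genes, and SAL replicate 6, PNO replicate 3 and IUO replicate 1 stand at the top of their groups in most panels.

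The ratio of the highest to the lowest of the 18 pups was 11.8 for *Fosb*, 8.56 for *Egr2* and 5.45 for *Fos*, and between 3.28 (*Junb*) and 4.52 (*Nr4a1*) for the other 7 genes. The biological coefficient of variation between pups of a group, estimated by edgeR, was 0.541 for *Fosb*, 0.507 for *Egr2*, 0.426 for *Arc*, 0.402 for *Fos* and for *Nr4a1*, 0.392 for *Npas4*, 0.345 for *Egr1*, 0.326 for *Junb*, 0.311 for *Dusp1* and 0.306 for *Ier2*. The median over the 15703 genes tested was 0.18. Each of the 10 genes lay above the trend over genes of its own level, which ran from 0.169 at the level of *Egr1* to 0.321 at that of *Fosb*. *Fosb* varied more than 95.2% of the genes tested and *Ier2*, the steadiest of the 10, more than 79.3%. These shares describe the genes and were not tested.

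**Figure D2:**
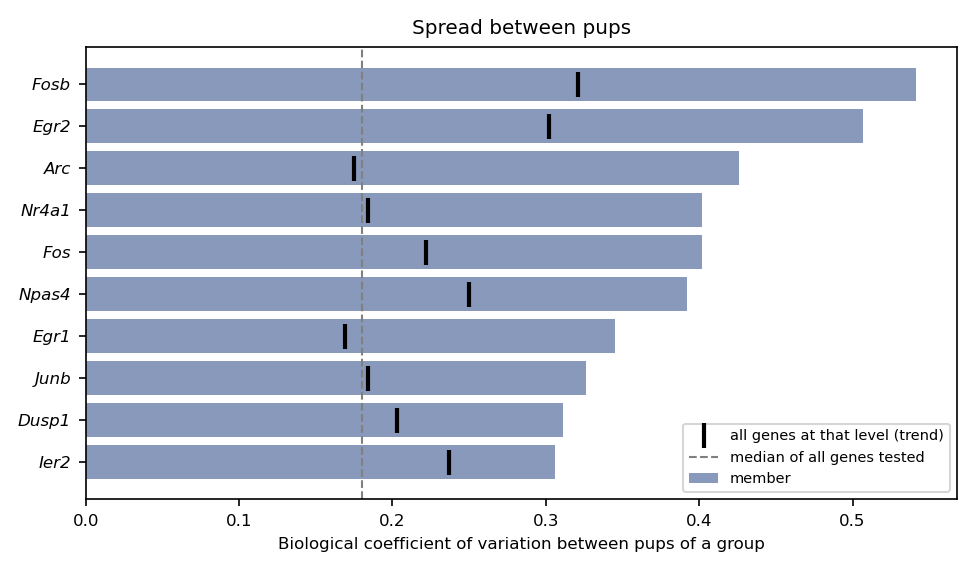
Biological coefficient of variation between pups of a group for each gene (bars, axis from 0), with the trend of all genes at the same level (black marks) and the median of all genes tested (dashed line). All 10 bars pass both marks, from 0.306 for Ier2 to 0.541 for Fosb against a median of 0.18.

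Exposure after birth was compared with saline first. None of the 10 genes passed an adjusted p of 0.05 between PNO and SAL by edgeR's quasi-likelihood test with Benjamini-Hochberg adjustment, where 0% of all genes tested did. At an unadjusted p under 0.05, 0 of the 10 passed against 4.5% of all genes, and DESeq2 gave the same counts. With 1 pup left out, this count was 1 without SAL replicate 2 and 2 without SAL replicate 4 or PNO replicate 3. The fitted log2 difference was below 0 for 9 of the 10 genes, against 49.2% of all genes, with a median of -0.12. *Dusp1*, at 0.07, was the exception. These genes vary together over pups, as described further on, so that 9 of one sign are not 9 separate observations. The largest was that of *Fosb*, with 3.95 ± 1.64 CPM in PNO and 7.28 ± 7.12 CPM in SAL (SD, n = 6 each). Its log2 difference of -0.89 (SE 0.464) had a 95% interval from -1.87 to 0.10 and an adjusted p of 0.912 by edgeR's quasi-likelihood test. Without SAL replicate 6 it was -0.18, and the median over the 10 genes was 0.03. *Npas4* had a log2 difference of -0.53 (SE 0.328, interval from -1.23 to 0.17), with 10.96 CPM in PNO and 15.8 CPM in SAL. For *Egr1* the difference was -0.09 with an interval from -0.70 to 0.52, and for *Arc* -0.04 with an interval from -0.80 to 0.73. With myelin markers as a covariate, *Fos* (0.04), *Junb* (0.0027), *Egr1* (0.09) and *Arc* (0.06) were above 0.

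Exposure before and after birth gave no call either. Between IUO and SAL, 0 of the 10 genes passed the adjusted threshold, as for 0% of all genes tested, and 0 of the 10 had an unadjusted p under 0.05, against 6.88% of all genes. DESeq2 again called 0 at either threshold. The fitted log2 difference was below 0 for 7 of the 10 genes, against 52% of all genes, with a median of -0.11. *Arc* stood farthest from 0, with 65.9 ± 24.3 CPM in IUO and 93.9 ± 36.1 CPM in SAL (SD, n = 6 each). Its log2 difference was -0.51 (SE 0.360, interval from -1.28 to 0.25), with an adjusted p of 0.896 by edgeR's quasi-likelihood test. Leaving out each pup in turn kept the *Arc* difference between -0.73 and -0.35. *Npas4* and *Ier2* followed at -0.28 and -0.26, while *Egr2* (0.19), *Dusp1* (0.12) and *Junb* (0.002) were on the other side of 0. Without IUO replicate 1 the median was -0.31, and without SAL replicate 6 it was 0.14. With limma-voom, *Fos* (0.05), *Fosb* (0.41), *Egr1* (0.007), *Npas4* (0.03) and *Nr4a1* (0.04) were above 0. *Junb* (-0.01) and *Dusp1* (-0.0027) were below 0 in that fit.

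The exposed groups were then set against each other. Both had oxy after birth, and the dams of IUO pups also had it before mating, while the dose was raised, and through gestation. Between IUO and PNO, 0 of the 10 genes passed the adjusted threshold, against 0.0637% of all genes, and 0 of the 10 had an unadjusted p under 0.05, where 15.3% of all genes did. DESeq2 called 0 at both thresholds, while limma-voom and a fit of the 12 pups compared each had 1 gene at an unadjusted p under 0.05, *Fosb* in limma-voom at a log2 difference of 0.82 (SE 0.335) and in the smaller fit at 0.81 (SE 0.309). Without SAL replicate 6 or without PNO replicate 3, the edgeR count was also 1. The log2 difference was above 0 for 8 of the 10, with a median of 0.12, and 50.1% of all genes were below 0. Without IUO replicate 1 the median was -0.12, and with myelin markers as a covariate 5 of these differences fell below 0. *Fosb* had 6.94 ± 3.34 CPM in IUO and 3.95 ± 1.64 CPM in PNO, a log2 difference of 0.81 (SE 0.464, interval from -0.18 to 1.80) with an adjusted p of 0.415 by edgeR's quasi-likelihood test. The *Fosb* values stayed between 0.53 and 1.06 when each pup was left out. *Arc* had a difference of -0.47 (SE 0.360, interval from -1.24 to 0.29) which was -0.06 without PNO replicate 3, and *Ier2* of -0.21. The 3 comparisons share pups, so a group that lies low appears in both of its comparisons. In none of them did the groups of 6 pups separate for any of the 10 genes, against 0.108%, 0.745% and 1.66% of all genes tested for PNO and SAL, IUO and SAL, and IUO and PNO.

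**Figure D3:**
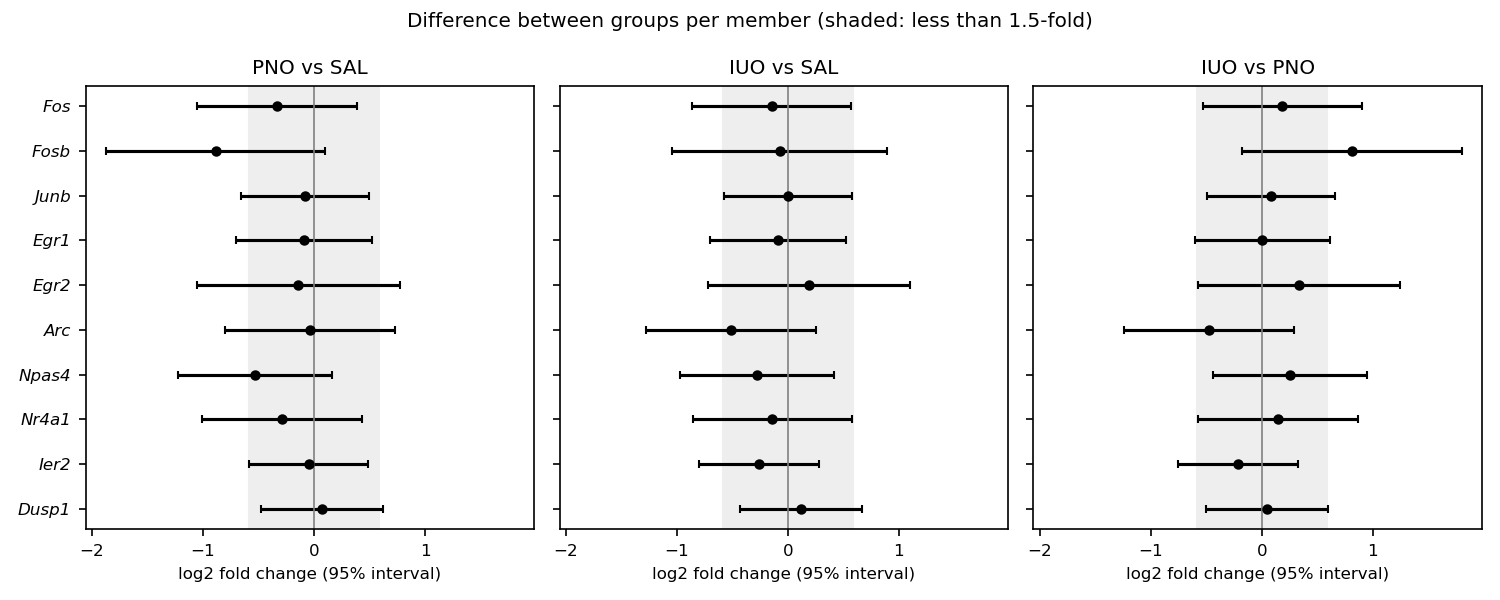
Fitted log2 fold change with 95% interval for each gene in the 3 comparisons, from 1 edgeR model over 18 pups. The shaded band covers changes of less than 1.5-fold. The interval of every gene includes 0, and the widest are those of Fosb and Egr2.

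Levels of the 10 genes varied together from pup to pup. Over the 18 pups, the median Pearson's r of log2 CPM over the 45 pairs of genes was 0.814 and the median Spearman's rho 0.808. By permutation test with 100000 resamples, two-sided and Benjamini-Hochberg adjusted over the 45 pairs, 42 pairs passed 0.05 by Pearson's r and 43 by Spearman's rho. The median r over all pairs of the 15703 genes tested was -0.0015. How many of all pairs would pass the same test was not counted, and this median does not give that share. The 10 genes were also listed with earlier results of these data known. The closest pair was *Junb* and *Egr1*, with r = 0.954, rho = 0.920 and an adjusted permutation p of 3e-05 for r, which rests on 1e-05, the smallest p the permutations can give. *Egr1* and *Nr4a1* had r = 0.945 and *Egr1* and *Arc* r = 0.912. Without the 2 pups farthest from the median of the first gene, the median r was 0.797 and 45 of 45 values were above 0, the lowest at 0.0564. The first principal axis of the 10 standardised genes held 78.7% of their variation, and *Egr1* (r = 0.977), *Junb* (0.969) and *Nr4a1* (0.966) followed it most closely. For all genes tested the first axis held 33.1%. Such a share depends on the number of genes in the set, and sets of 10 other genes were not drawn for comparison.

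Within groups the genes also varied together. The median r over the 45 pairs was 0.884 within SAL, 0.882 within PNO and 0.888 within IUO (n = 6 pups each, given as a description). Among the 36 pairs without *Npas4*, the lowest r was 0.610 within SAL, 0.549 within PNO and 0.785 within IUO. Centring each group on its own mean left 42 pairs past the threshold with a median r of 0.849. The permutation did not allow for the means removed, so that this count may be too high. End pups carried part of the joint variation within groups. With each pup of a group left out in turn, a choice made after the data were seen, the median over the 36 pairs was lowest at 0.823 without SAL replicate 4, 0.714 without PNO replicate 3 and 0.596 without IUO replicate 1, and the lowest single pair was then at -0.0219, 0.132 and -0.151. Among the other 5 IUO pups, replicate 5 had 155.5 CPM of *Egr1*, close to the highest of the 5 at 158 CPM, but the lowest *Egr2* of the group at 5.40 CPM.

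**Figure D4:**
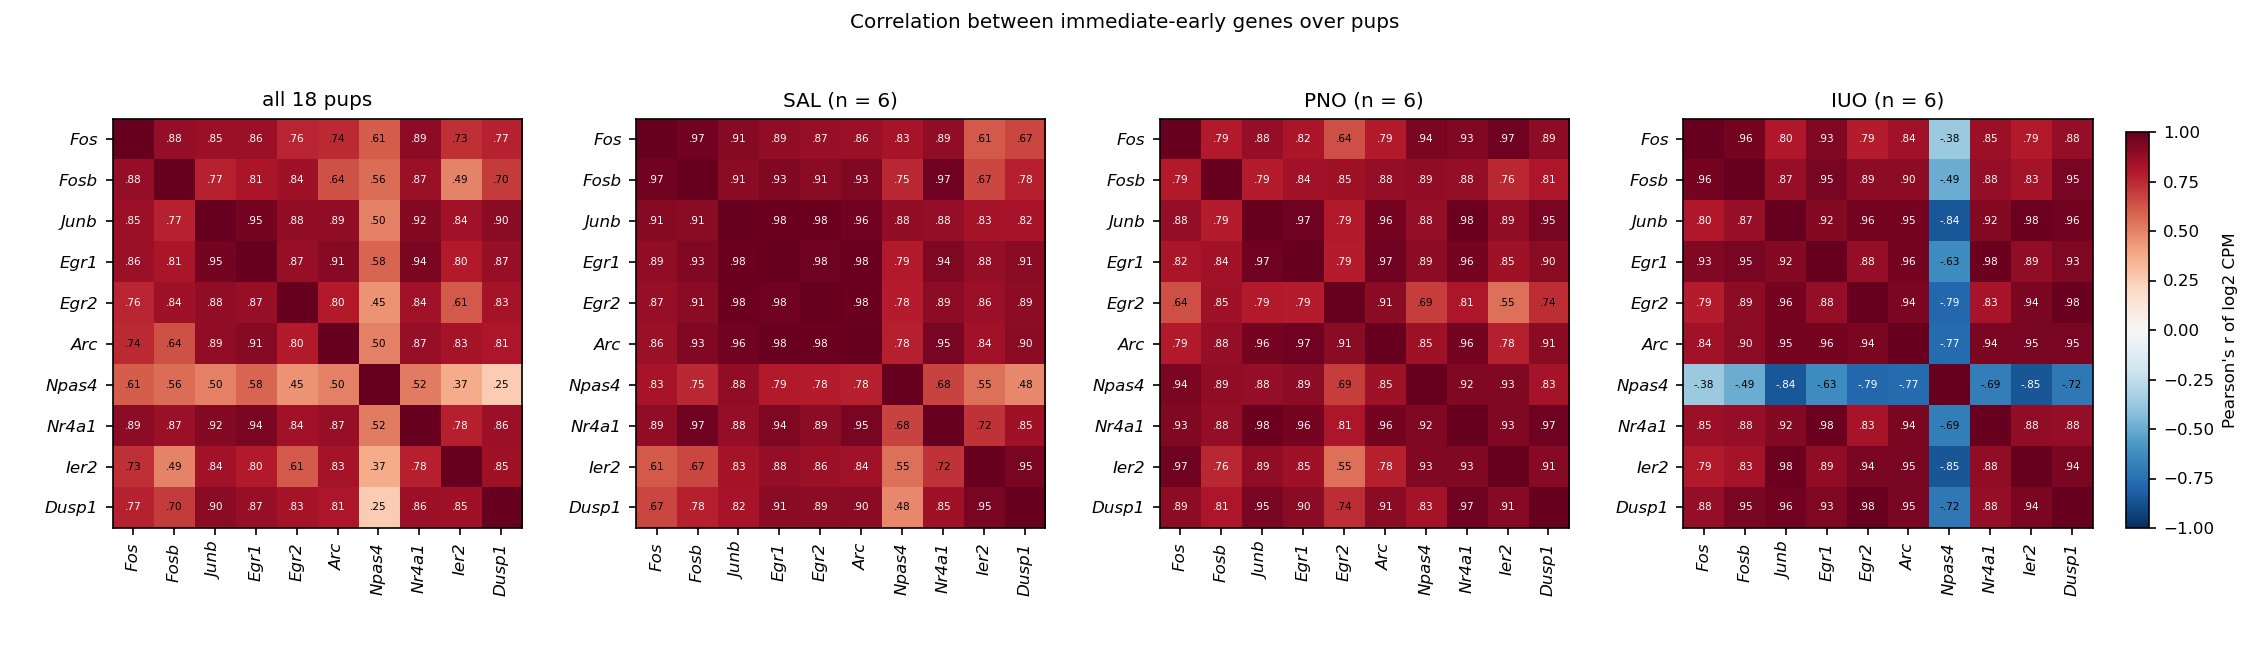
Pearson's r of log2 CPM for each pair of genes over all 18 pups and within each group (n = 6), on a scale from -1 to 1. Nearly all cells are positive, and the row of Npas4 is weaker over all pups and negative within IUO.

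*Npas4* stood apart from the other 9 genes. Its 9 pairs had a median r of 0.503 over the 18 pups, from 0.252 with *Dusp1* to 0.608 with *Fos*, and 6 of the 9 passed the adjusted permutation test. The 36 pairs without it all passed, with a lowest r of 0.495 and a median of 0.843. Its correlation with the first axis was 0.580, the lowest of the 10. Within SAL and PNO its pairs had median r of 0.779 and 0.886, and within IUO -0.716, from -0.854 with *Ier2* to -0.375 with *Fos*. IUO replicate 1 had 7.19 CPM of *Npas4* beside 251 CPM of *Egr1*, a log2 ratio of -5.13, where the other 17 pups lay between -4.27 and -2.76. Without that pup, a choice made after the data were seen, the median r of the *Npas4* pairs over 17 pups was 0.732, from 0.541 to 0.815, and 44 of the 45 pairs passed the threshold. Among the other 5 IUO pups alone the median r of the *Npas4* pairs was 0.240, from -0.272 with *Ier2* to 0.880 with *Fosb*, and 2 of the 9 were below 0.

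**Figure D5:**
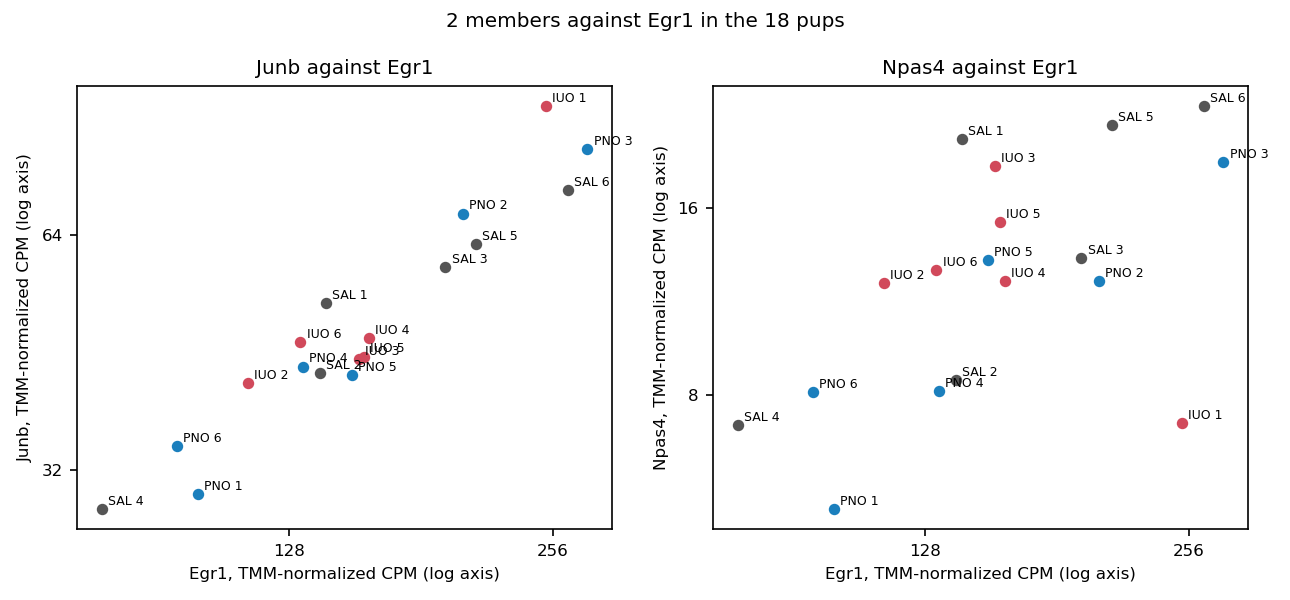
Junb and Npas4 against Egr1 in the 18 pups (TMM-normalized CPM, both axes logarithmic), each point 1 pup labelled by group and replicate. Junb follows Egr1 throughout (r = 0.954), whereas IUO replicate 1 has 7.19 CPM of Npas4 beside 251 CPM of Egr1.

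Single pups set the ends of the range. SAL replicate 6, PNO replicate 3 and IUO replicate 1 were each among the 3 highest of the 18 pups for 8 of the 10 genes. SAL replicate 4 was among the 3 lowest for 10 of 10 genes and PNO replicate 1 for 8 of 10. The mean standardised level of the 10 genes was 1.5 in SAL replicate 6, 1.46 in PNO replicate 3 and 1.34 in IUO replicate 1, and -1.51 in SAL replicate 4 and -1.41 in PNO replicate 1. The genes did not keep a fixed ratio at the top. SAL replicate 6 had the highest *Fosb* and *Nr4a1* relative to *Egr1* (log2 ratios of -3.64 and -1.20) and the lowest *Ier2* and *Dusp1* relative to it (-3.87 and -2.76). PNO replicate 3 had the highest *Arc* relative to *Egr1*, at -0.45 against a median of -1.02, and IUO replicate 1 the highest *Egr2* relative to *Egr1*, at -3.79 against a median of -4.43.

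Make-up of the tissue varied between pups as well. The 5 excitatory neuron markers, among them *Slc17a7* and *Tbr1*, summed to 1102.8 to 2481.9 CPM and were detected in every pup. The summed level of 7 myelin markers was 1667 to 9087 CPM in SAL, 2823 to 14394 CPM in PNO and 2129 to 5457 CPM in IUO, and 8 striatal markers summed to 163 to 1576 CPM, 218 to 1330 CPM and 407 to 1909 CPM. All 7 myelin markers had an unadjusted p under 0.05 between IUO and PNO (lower in IUO), against 15.3% of all genes, and all 8 striatal markers had a fitted difference above 0, with 0 past that threshold. *Pvalb*, which marks a class of inhibitory neurons, was the 1 gene of the marker lists to pass the adjusted threshold. The other 5 inhibitory neuron markers had log2 differences between IUO and PNO of 0.26 for *Slc32a1*, 0.23 for *Gad2*, -0.14 for *Gad1*, -0.31 for *Vip* and -0.34 for *Sst*, and 0 of the 5 at an unadjusted p under 0.05. *Pvalb* had 4.43 ± 1.26 CPM in IUO and 22.4 ± 8.69 CPM in PNO (SD, n = 6 each). Its log2 difference was -2.34 (SE 0.413), with an adjusted p of 0.0356 by edgeR's quasi-likelihood test. The call was lost with myelin markers as a covariate (-1.39, adjusted p = 0.322) and when any 1 IUO pup, or any 1 PNO pup other than replicate 5, was left out, where the adjusted p by the same edgeR test was 0.0547 to 0.102 and the log2 difference -2.44 to -2.19. Of 4 blood gene entries, 3 were higher in IUO than in SAL at an unadjusted p under 0.05, against 6.88% of all genes, with *Alas2* at 1.31 (SE 0.444, adjusted p = 0.530 by edgeR). IUO replicate 6 stood apart, with a blood sum of 7461 CPM against 1096 to 2825 CPM in the other IUO pups, and without it 1 of the 4 passed and *Alas2* was at 0.82 (SE 0.385). Each of the 10 genes was set against 11 marker lists, the mitochondrial share of counts and the total count, 130 relations in all, and 0 passed a Benjamini-Hochberg adjusted permutation p of 0.05, the smallest being 0.381 for Pearson's r and 0.260 for Spearman's rho (*Egr1* with excitatory neuron markers, rho = 0.697). Over the 18 pups the median r of the 10 genes was 0.400 with microglia markers, 0.380 with endothelial and mural markers, 0.335 with excitatory neuron markers, -0.292 with myelin markers and -0.412 with markers of oligodendrocyte precursors. With the total count it was -0.363, below 0 for 10 of the 10 genes and lowest for *Ier2* at -0.570.

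Within SAL, the mitochondrial share of counts ran against the 10 genes, with a median r of -0.871. It was 16.3% in SAL replicate 4, the lowest pup of the group, 7.31% in SAL replicate 6, the highest of the group, and 9.92% to 10.6% in the other 4. Myelin markers did the same, with a median r of -0.788 in SAL. The corresponding values were 0.352 and -0.119 in PNO, and 0.0436 and 0.366 in IUO, and the difference between groups was not tested. Other measures stood out elsewhere, with a median r of -0.753 for oligodendrocyte precursor markers, -0.670 for the total count and 0.652 for excitatory neuron markers in PNO, and of 0.663 for endothelial and mural markers and 0.637 for astrocyte markers in IUO. The part of tissue make-up in the levels of the 10 genes was not tested further. With myelin markers as a covariate, 0 of the 10 genes passed in any comparison.

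Other genes of the early response were read from a list of 38, of which 37 were tested. Between PNO and SAL, 18 were higher and 19 lower, with 0 at an unadjusted p under 0.05 and a median log2 difference of -0.01. Between IUO and SAL 19 were higher and 18 lower, and 2 of the 37 had an unadjusted p under 0.05, against 6.88% of all genes. *Jund*, a JUN family member with steady expression, had a difference of 0.28 (SE 0.110) and *Maff*, a small MAF factor, of -0.58 (SE 0.223), with adjusted p of 0.611 and 0.615 by edgeR's quasi-likelihood test. Between IUO and PNO the split was again 19 to 18, with 3 of the 37 at an unadjusted p under 0.05 against 15.3% of all genes. *Egr3*, a further EGR factor, had 33.5 ± 9.28 CPM in IUO and 21.7 ± 6.40 CPM in PNO, a log2 difference of 0.62 (SE 0.287, adjusted p = 0.313 by edgeR's quasi-likelihood test). The phosphatase gene *Dusp2* had a difference of 0.38 (SE 0.115) and the orphan receptor gene *Nr4a2* of -1.25 (SE 0.546), with adjusted p of 0.144 and 0.290 by the same edgeR test. No gene of the list passed the adjusted threshold in any comparison.

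Across the 18 pups, likeness to the 10 genes was measured as Pearson's r with their mean standardised log2 CPM, over 14359 further genes with a mean of at least 1 CPM. The 10 most alike were *RGD1562136* (0.927), *Btg2* (0.893), *Rasl11b* (0.852), *Tmod1* (0.825), *Nab2* (0.824), *Egr4* (0.824), *Dnajb5* (0.812), *Gdpd5* (0.807), *Dusp6* (0.801) and *Arl4d* (0.793). *Btg2* encodes an antiproliferative protein, *Nab2* a corepressor that binds EGR proteins, and *Dusp6* a phosphatase of ERK. *Egr4* is a further EGR factor. *Btg2*, *Egr4*, *Dusp6* and *Arl4d* were on the early response list. Of 36 genes of that list that could be ranked, 33 had r above 0, 6 had r of 0.7 or more, against 0.425% of all genes ranked, and the median was 0.507 against 0.016 for all genes. A few members of the same families went the other way or showed no relation, with r = 0.083 for *Jun*, -0.188 for *Jund*, -0.388 for *Dusp4* and -0.475 for *Nr4a2*. All genes of a pup share 1 library and its depth, and these values are a description.

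Late response genes, which encode secreted and synaptic proteins made hours after activity, had r with the 10 genes on both sides of 0. The median over the 15 tested was 0.080, from -0.593 to 0.604 (*Nptx2*). An unadjusted p under 0.05 was reached by 1 of the 15 for PNO against SAL (4.5% of all genes), by 1 for IUO against SAL (6.88% of all genes) and by 4 for IUO against PNO (15.3% of all genes). *Inhba*, an activin subunit gene, had 1.12 ± 0.685 CPM in PNO against 2.96 ± 2.40 CPM in SAL and 2.70 ± 0.937 CPM in IUO, with log2 differences of -1.40 (SE 0.532) for PNO over SAL and 1.27 (SE 0.532) for IUO over PNO. Its adjusted p was 0.912 and 0.273 by edgeR's quasi-likelihood test. The neuritin gene *Nrn1* (-0.74, SE 0.210), the secretogranin gene *Scg2* (-0.61, SE 0.210) and *Crh* (-0.55, SE 0.238) were the others between IUO and PNO, with adjusted p of 0.126, 0.185 and 0.291 by the same edgeR test. *Scg2* had a difference of -0.45 (SE 0.209) between IUO and SAL.

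Upstream regulators, the kinases, channels and factors that drive the early genes, had a median r of 0.218 over 25 genes, from -0.634 upward. *Srf* had the highest at 0.767, and its level lay between 44.03 CPM in SAL replicate 4 and 65.7 CPM in PNO replicate 3. Between IUO and PNO, 17 of 25 were higher, where 50.1% of all genes were lower, with 1 at an unadjusted p under 0.05 against 15.3% of all genes, the calcineurin subunit gene *Ppp3ca* at 0.34 (SE 0.160). Glucocorticoid response genes, of which 9 were tested and 7 ranked, had a median r of 0.272 and a lowest of -0.275, with *Per1*, a clock gene that activity and glucocorticoids both induce, highest at 0.786. *Tsc22d3* and *Ddit4* had log2 differences of -0.45 (SE 0.108) and -0.25 (SE 0.105) between IUO and PNO, and of -0.26 and -0.23 between IUO and SAL, none past the adjusted threshold. They were the 2 of 9 at an unadjusted p under 0.05 in each comparison, against 15.3% and 6.88% of all genes. Heat shock genes had a median r of -0.177 over the 10 listed gene entries, from -0.387 to 0.451. *Hspd1*, a mitochondrial chaperonin gene, had 222 ± 12.3 CPM in IUO, 249 ± 12.8 CPM in SAL and 256 ± 17.9 CPM in PNO, with log2 differences of -0.17 (SE 0.0574) for IUO over SAL and -0.21 (SE 0.0574) for IUO over PNO and adjusted p of 0.530 and 0.121 by edgeR's quasi-likelihood test. *Hspa1a*, an inducible HSP70 gene, had a difference of -1.80 (SE 0.737) between IUO and SAL at levels of 0.554 and 1.95 CPM. Its near-identical copy *Hspa1b* was at 3.85 and 3.58 CPM, a difference of 0.10 (SE 0.285), and how reads were shared between the copies leaves both values uncertain. The co-chaperone gene *Bag3* had a difference of -0.37 (SE 0.155) between IUO and PNO. The adjusted p of *Hspa1a* and *Bag3* was 0.666 and 0.276 by the same edgeR test. In each of these comparisons 2 of the 10 entries had an unadjusted p under 0.05, against 6.88% of all genes for IUO and SAL and 15.3% for IUO and PNO.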

How the data were processed

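RNA from the PFC of 18 pups was sequenced as 75 bp single reads, and groups and replicate numbers were taken from the sample titles. Per the file headers, the authors deposited for each pup an expected count, a TPM and an FPKM for 32623 genes. Expected counts are reads per gene with ambiguous reads shared out by estimation. The authors' TPM, deposited beside it, corrects for gene length and sets 1 total for every pup. FPKM, also deposited by the authors, corrects for length and depth and was not used. The aligner, the quantification program and the genome build are not given in the sources used here. No pair of pups had identical values, and 0 columns of samples were left unused.

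The members and lists were chosen with earlier results of these data known. 1 excitatory neuron marker is not reported here and was left out of its list. Whole-number rounding of the expected counts came first. The quasi-likelihood test of edgeR 4.0.16 (R 4.3.3) then fitted all 3 groups at once, after TMM and a filterByExpr filter, and was two-sided. Benjamini-Hochberg adjustment took in all 15703 genes. Log2 CPM used a prior count of 2. Correlations used permutation with 100000 resamples in Python 3.11.15 with numpy 2.4.6, scipy 1.17.1 and pandas 2.3.3, and plots used matplotlib 3.10.9. Upstream sequences are from RefSeq. Named genes are the 10 members, up to 5 genes of each list with the smallest unadjusted p under 0.05, and the 10 genes most alike. Others were named as examples of a marker list or of r values after these were seen. Alternatives were DESeq2 1.42.0, its size factors, raw library sizes, voom with quality weights (limma 3.58.1), other filters, the 12 pups compared alone, striatal or myelin markers as a covariate, a replicate block, a prior count of 0.5, each pup left out and, chosen after the data were seen, 3 pups left out and single pups left out within a group. Replicate numbers were not used to pair the pups in the main fit. On simulated data for PNO against SAL, edgeR recovered 69.7% of 198 changed genes among 15570, from 40.0% at 1.5-fold to 95.9% at 4-fold, and 6.76% of its calls were false. The changed genes were drawn at random from all genes tested, with a median biological coefficient of variation of 0.18. Those of the 10 genes were 0.306 to 0.541, so these recovery rates do not carry over to them.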

Additional observations from a re-analysis of the deposited data

Results flagged for a closer look

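Within each group of 6 pups, the gap between an end pup and its nearest neighbour was compared with the whole range of the group on the log2 CPM scale. In 4 of 30 combinations of gene and group the gap passed Dixon's 95% critical value for 6 values, and chance alone marks about 1 in 20. All 4 concern IUO replicate 1. *Junb* was at 6.55 log2 CPM in that pup, with the next IUO pup at 5.56. *Dusp1* was at 5.99 with the next at 5.07, *Ier2* at 4.59 with the next at 3.76, and *Egr2* at 4.19 with the next at 2.92. The 10 genes vary together, so these are not 4 separate observations.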

How the results depend on the processing

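In none of the settings tried did any of the 10 genes pass an adjusted p of 0.05 in any comparison. Of 330 fitted log2 differences under the other settings, 289 kept their direction and 41 did not, and the smallest adjusted p was 0.0987, by limma-voom, for *Fosb* between IUO and PNO. Over all genes the count of calls depended on the setting. Between IUO and PNO it was 10 by edgeR, 436 by DESeq2, 2028 by limma-voom, 19 with no normalization, 72 with only the 12 pups compared, 50 with striatal and 0 with myelin markers as a covariate, and 6 with the replicate block. Between IUO and SAL it was 0 by edgeR, 49 by DESeq2 and 43 by limma-voom, and between PNO and SAL 1 by DESeq2. All 41 have a size below 0.5 on the log2 scale and lie around 0, and the cause was not tested. Between IUO and SAL, *Junb* was at -0.0012 with DESeq2 size factors, -0.02 with no normalization, -0.00038 with DESeq2 and -0.0021 with only the 12 pups compared. With no filter on low counts, the values were -0.0078 for *Junb* between IUO and SAL, and -0.001 for *Egr1* between IUO and PNO. With limma-voom, the values were 0.05 for *Fos*, 0.41 for *Fosb*, -0.01 for *Junb*, 0.007 for *Egr1*, 0.03 for *Npas4*, 0.04 for *Nr4a1* and -0.0027 for *Dusp1* between IUO and SAL, and -0.05 for *Dusp1* between IUO and PNO. With striatal markers as a covariate, the values were -0.15 for *Junb*, -0.13 for *Egr2* and -0.03 for *Dusp1* between IUO and SAL, and -0.06 for *Junb*, -0.08 for *Egr1* and -0.08 for *Dusp1* between IUO and PNO. With myelin markers as a covariate, the values were 0.04 for *Fos*, 0.0027 for *Junb*, 0.09 for *Egr1* and 0.06 for *Arc* between PNO and SAL, and -0.03 for *Junb* between IUO and SAL, and -0.26 for *Fos*, -0.03 for *Junb*, -0.25 for *Egr1*, -0.41 for *Npas4* and -0.17 for *Nr4a1* between IUO and PNO. Without SAL replicates 4 and 6 and IUO replicate 1, pups at the ends of the range that were chosen after the data were seen, the values were 0.15 for *Fosb*, -0.26 for *Junb*, -0.19 for *Egr2* and -0.21 for *Dusp1* between IUO and SAL, and -0.03 for *Fos*, -0.16 for *Junb*, -0.17 for *Egr1*, -0.04 for *Egr2*, -0.09 for *Nr4a1* and -0.22 for *Dusp1* between IUO and PNO, 39 pairs passed and their median r was 0.757. 

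Whether replicate numbers pair the pups was not tested. The correlation of same-numbered pups ranged from -0.0589 to 0.488 between PNO and SAL, with an average of 0.232 against -0.0461 for other pairs. The average for same-numbered pups was -0.0265 when IUO was set against SAL and 0.0626 when it was set against PNO. Each pup was closest to its own number in 2, 0 and 2 of 6 cases. A replicate block called 0 of the 10 genes in each comparison, with medians of -0.14, -0.04 and 0.12. It left 39 of the 45 pairs past the threshold and turned 1 direction, that of *Fosb* between IUO and SAL, to 0.21. The permutation did not allow for the means removed, so that the count of 39 may be too high. 

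With each pup left out in turn, 486 of 540 differences kept their direction, 54 did not and the smallest adjusted p was 0.222. Between PNO and SAL, the median ranged from -0.46 to 0.03, and the genes that changed direction from -0.51 to 0.02 for *Fos*, -0.28 to 0.03 for *Junb*, -0.33 to 0.07 for *Egr1*, -0.48 to 0.07 for *Egr2*, -0.45 to 0.12 for *Arc*, -0.57 to 0.02 for *Nr4a1*, -0.26 to 0.11 for *Ier2* and -0.14 to 0.17 for *Dusp1*. Between IUO and SAL, the median ranged from -0.31 to 0.14, and the genes that changed direction from -0.37 to 0.20 for *Fos*, -0.36 to 0.63 for *Fosb*, -0.24 to 0.11 for *Junb*, -0.26 to 0.08 for *Egr1*, -0.18 to 0.41 for *Egr2*, -0.38 to 0.17 for *Nr4a1* and -0.15 to 0.19 for *Dusp1*. Between IUO and PNO, the median ranged from -0.12 to 0.32, and the genes that changed direction from -0.03 to 0.36 for *Fos*, -0.16 to 0.28 for *Junb*, -0.17 to 0.24 for *Egr1*, -0.04 to 0.67 for *Egr2*, -0.09 to 0.43 for *Nr4a1* and -0.22 to 0.25 for *Dusp1*. Most ends of these ranges come from leaving out SAL replicate 6, PNO replicate 3 or IUO replicate 1. Between IUO and PNO, *Arc* was at -0.06 without PNO replicate 3. The number of pairs past the threshold was 38 to 44.

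The lowest value of any gene in any pup was 40 expected counts (*Fosb*). Of the 30 intervals of group differences, 29 reach past 1.5-fold in at least 1 direction, so that a difference of that size is not excluded there.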
